A study of Mus musculus with 6 samples.

Results

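The ligands, receptors and extracellular regulators of the TGF-beta and activin branch were measured by RNA sequencing in infarcted mouse heart. The group holds 10 genes of the 36047 to which the deposited transcripts could be joined, and was chosen by name: the ligands Tgfb1, Tgfb2, Tgfb3 and Inhba, the matrix protein Ltbp2, the receptors Tgfbr1, Tgfbr2 and Tgfbr3, and the activin-binding or follistatin-like proteins Fst and Fstl1. All 10 passed the filter on low counts and were tested. The comparison was between 3 animals that received LGK974, which blocks the acyltransferase Porcupine and with it the secretion of Wnt proteins, and 3 that received DMSO as vehicle. All were C57BL6 mice of 12 weeks with no genetic alteration named in the labels. Both groups underwent temporary ligation of the left anterior descending coronary artery with reperfusion, and the infarct area was collected 48 h later. LGK974 was given by gavage from the end of surgery onwards. The question was which transcripts differ in the infarct when Wnt secretion is blocked.

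TGF-beta ligands are secreted as latent complexes that are held in the matrix by latent TGF-beta binding proteins and fibrillin, and are released by integrins, thrombospondin or proteases. Free ligand binds the type II receptor Tgfbr2, which activates the type I receptor Tgfbr1, while betaglycan (Tgfbr3) presents ligand, Tgfb2 above all. Inhba encodes the subunit of activin A, which signals through the activin receptors and is bound by follistatin (Fst). Both branches phosphorylate Smad2 and Smad3, and in injured heart they are known for driving fibroblasts towards matrix-producing myofibroblasts.

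The libraries held 41579787 to 80398211 estimated counts, of which 28.2% to 53.7% were mitochondrial. DMSO replicate 1 stood apart: the correlation of log2 expression across genes was 0.883 to 0.947 between it and the others and 0.965 to 0.989 among the others. In that library 99.3% of 1501 olfactory, vomeronasal and taste receptor genes, most of which heart is not known to express, had a count, against 59.8% to 88.3% elsewhere. It held the highest value for 40.3% of the 20094 tested genes, but for only 1 of the 10 genes described here (Fst), and LGK974 replicate 3 held the highest value for 22.5% of tested genes and for 6 of the 10. Levels below are CPM, counts relative to the library size after TMM scaling, and differences are edgeR log2 fold changes of LGK974 against DMSO, whose median over all tested genes was -0.13. In whole tissue, fewer cells of a type and less RNA per cell cannot be told apart.

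The sequence upstream of the transcription start is shown for 4 of the genes with higher means with LGK974, because their promoters differ in composition. Of these, Inhba had overlapping groups. Fstl1, Tgfbr1 and Tgfbr2 also had higher means, and their upstream windows are not shown. The letters are from RefSeq (GRCm38.p6), 5′ to 3′ on the strand of the gene, and end at the last base before the gene's annotated span. Capitals mark matches on either strand to GGGCGG, known as the GC box. They also mark TATAAA, the letters of the TATA box, at any distance from the start, so a match need not be a working core promoter element. They further mark CAGACA, an element to which Smad3 is known to bind.

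Tgfb1, chr7:25686752-25687001, plus strand: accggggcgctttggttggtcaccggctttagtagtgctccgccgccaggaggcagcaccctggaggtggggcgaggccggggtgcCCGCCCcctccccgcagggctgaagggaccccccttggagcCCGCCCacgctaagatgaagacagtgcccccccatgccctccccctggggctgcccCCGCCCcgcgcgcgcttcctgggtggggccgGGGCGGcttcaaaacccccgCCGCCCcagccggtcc

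Tgfb2, chr1:186705990-186706239, minus strand: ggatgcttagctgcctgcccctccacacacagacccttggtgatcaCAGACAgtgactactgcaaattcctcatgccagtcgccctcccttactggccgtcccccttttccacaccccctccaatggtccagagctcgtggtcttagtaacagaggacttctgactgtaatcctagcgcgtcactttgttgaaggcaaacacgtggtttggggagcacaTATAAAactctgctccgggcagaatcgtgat

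Inhba, chr13:16011601-16011850, plus strand: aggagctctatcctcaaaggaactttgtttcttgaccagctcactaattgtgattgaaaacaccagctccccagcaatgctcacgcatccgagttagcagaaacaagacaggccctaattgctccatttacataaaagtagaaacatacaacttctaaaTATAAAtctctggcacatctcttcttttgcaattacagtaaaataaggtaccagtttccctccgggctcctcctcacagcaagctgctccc

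Ltbp2, chr12:84876533-84876741, minus strand: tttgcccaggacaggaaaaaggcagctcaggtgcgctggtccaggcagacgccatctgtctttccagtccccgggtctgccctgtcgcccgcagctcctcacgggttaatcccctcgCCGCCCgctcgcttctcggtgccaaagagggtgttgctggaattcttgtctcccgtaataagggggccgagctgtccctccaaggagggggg

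The Tgfb1 window had the highest G and C content of these (75.2% of the 250 bases before the start, where the median of all 32851 promoters was 52.4%) and held GC boxes at 164, 123, 67, 36 and 16 bases before the start. Inhba had 43.2% and no GC box, and held TATAAA 91 bases before the start. Tgfb2 had 53.6%, TATAAA at 31 bases and CAGACA at 204 bases before the start. Ltbp2 had 61.6% and GC boxes at 133 and 9 bases, counted from its RefSeq start, which lies inside the annotated gene. RefSeq windows of 300 bases were found for 7 of the 10 genes, in 8 windows, and not for Tgfb3, Tgfbr3 and Fst. GGGCGG occurred in 4 of the 8 windows and in 35.7% of all promoters, TATAAA in 2 and 13.6%, and CAGACA in 2 and 21.04%. The 8 windows had no match to the AP-1 letters TGANTCA (7.81% of all promoters), the palindromic Smad box GTCTAGAC (0.213%) or the TEAD letters CATTCC (14.7%). The letters were searched on both strands, could overlap one another, and are descriptions of sequence, not of binding.

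Most of these genes had higher means with LGK974, at p-values that did not pass adjustment in edgeR. The fold change was above 0 for 8 of the 10 genes, and the median of the 10 was 0.67. In edgeR (quasi-likelihood test, p adjusted by Benjamini-Hochberg over all tested genes) 0 of the 10 passed 0.05, as did 0 of all tested genes (0%). At an unadjusted p under 0.05, 6 of the 10 were higher (Tgfb1, Tgfb2, Tgfb3, Inhba, Ltbp2 and Fstl1), where 6.26% of all tested genes were, and 0 were lower, where 7.18% were. Every LGK974 library lay above every DMSO library in 6 of the 10 (with Tgfbr1 in place of Inhba) and in 10.7% of tested genes. Every one lay below in 0 of the 10 and in 7.27% of tested genes. The genes were chosen with earlier results of these data known, so these shares are a description. DESeq2 called 3 of the 10 higher, Tgfb2, Ltbp2 and Fstl1, against 0.985% of the genes to which it gave an adjusted p. Without DMSO replicate 1, DESeq2 again called these 3, against 2.04%, while edgeR called 0 and left the count at unadjusted p at 6. That count was 4 without LGK974 replicate 3 and 4 without DMSO replicate 2. The mice are separate animals, so the p-values measure the spread between 3 animals a group.

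**Figure D1:**
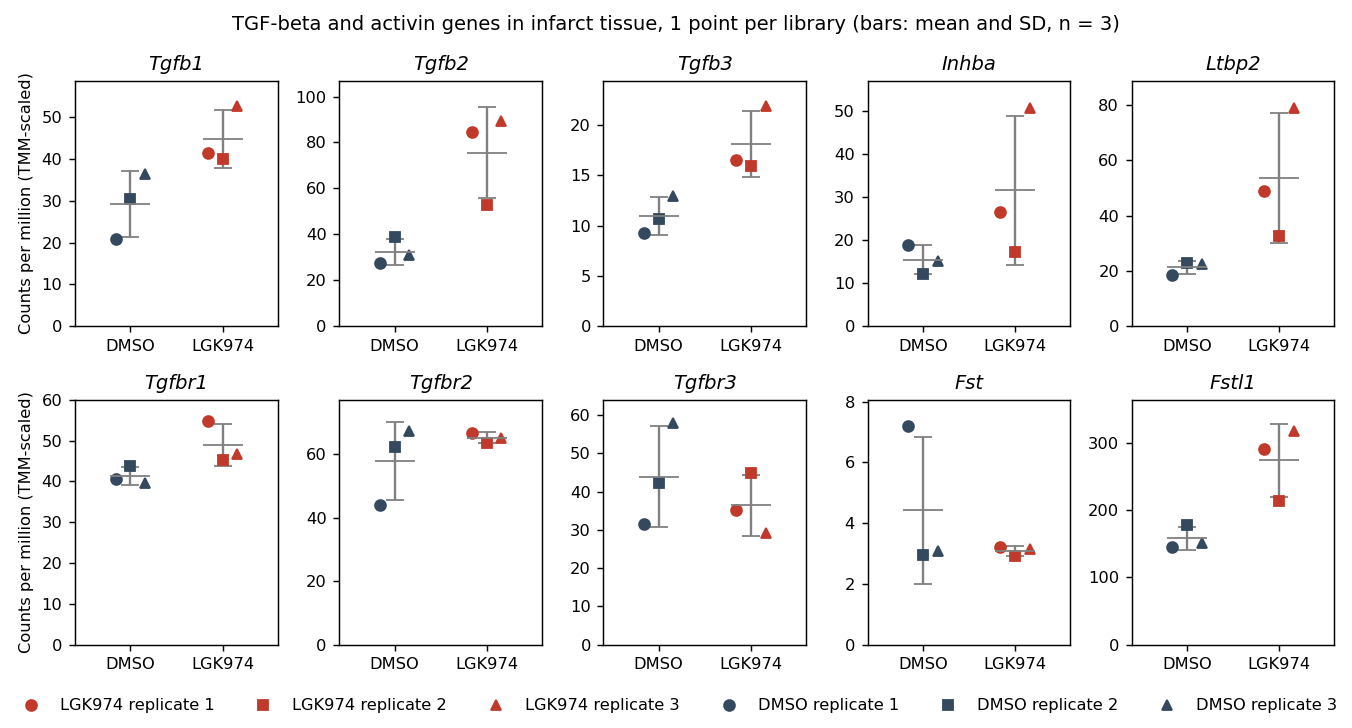
Level of each of the 10 genes (vertical axis, TMM-scaled CPM, from 0) in the 3 DMSO and 3 LGK974 libraries, 1 point per library with the mean and SD of each group. Tgfb1, Tgfb2, Tgfb3, Ltbp2 and Fstl1 separate by group, as does Tgfbr1 by a small margin. Inhba and Ltbp2 range from 17.2 to 50.9 and from 32.7 to 79.1 CPM among the LGK974 libraries. The Fst points lie together except for DMSO replicate 1 at 7.21 CPM.

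Among the ligands, Tgfb2 had the smallest p-value in edgeR with all libraries. Tgfb2 (chr1:186622792-186705989, minus strand), the isoform that depends on betaglycan for strong receptor binding, stood at 84.7, 52.9 and 89.2 CPM with LGK974 and at 27.3, 38.7 and 30.8 CPM with DMSO (75.6 ± 19.8 against 32.3 ± 5.86, SD, n = 3 each). The lowest LGK974 library, replicate 2, was above the highest DMSO library. The log2 fold change was 1.23 (SE 0.24, 95% interval 0.67 to 1.79), with an unadjusted p of 0.00107 and an adjusted p of 0.368 in edgeR, and an adjusted p of 0.00197 in DESeq2. It ranged from 1.13 to 1.49 when each library was left out in turn. Its exons share 124 bases with Gm29491 on the opposite strand, and the counting is not stated to use strand.

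Tgfb1 (chr7:25687002-25705077, plus strand), the ligand that leukocytes and platelets are known to supply, stood at 41.6, 40.0 and 52.8 CPM with LGK974 and at 20.9, 30.4 and 36.5 CPM with DMSO. The groups did not overlap, but the nearest libraries lay close together, LGK974 replicate 2 and DMSO replicate 3. The log2 fold change was 0.61 (SE 0.23, unadjusted p 0.0294, edgeR adjusted p 0.368, DESeq2 adjusted p 0.183), and 0.43 to 0.90 over the fits that left out 1 library. Without LGK974 replicate 3 it was 0.54, with an unadjusted p of 0.0939 in the edgeR fit. Tgfb3 (chr12:86056745-86079041, minus strand), the least abundant of the TGF-beta ligands, stood at 16.5, 15.97 and 21.9 CPM with LGK974 and at 9.27, 10.7 and 12.9 CPM with DMSO. Its groups did not overlap either, with a log2 fold change of 0.73 (SE 0.20, unadjusted p 0.00733, edgeR adjusted p 0.368, DESeq2 adjusted p 0.115). Tgfb3 shares 163 exon bases with Gm37804 and 257 with Gm48008, both on the opposite strand.

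Inhba (chr13:16011851-16031621, plus strand) stood at 26.7, 17.2 and 50.9 CPM with LGK974 and at 18.9, 12.2 and 15.1 CPM with DMSO. These groups overlapped, since LGK974 replicate 2 lay below DMSO replicate 1, and LGK974 replicate 3 was the highest by far. The log2 fold change was 1.04 (SE 0.38, 95% interval 0.16 to 1.92, unadjusted p 0.0266, edgeR adjusted p 0.368). Without LGK974 replicate 3 it was 0.60, with an unadjusted p of 0.0717 in the edgeR fit. The value thus depended on 1 animal.

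Ltbp2 (chr12:84783212-84876532, minus strand) is a fibrillin-like matrix protein which, unlike its relatives, does not bind latent TGF-beta. Ltbp2 stood at 48.9, 32.7 and 79.1 CPM with LGK974 and at 18.3, 22.7 and 22.5 CPM with DMSO (53.6 ± 23.6 against 21.2 ± 2.47, SD, n = 3 each). The DMSO libraries lay close together, and each LGK974 library was above them. The log2 fold change was 1.34 (SE 0.31, 95% interval 0.62 to 2.05), with an unadjusted p of 0.00267 and an adjusted p of 0.368 in edgeR and an adjusted p of 0.0066 in DESeq2, and it was 1.02 without LGK974 replicate 3. With all libraries this was the largest fold change of the 10 genes, but without LGK974 replicate 3 that of Tgfb2 was larger (1.17). Ltbp2 shares 764 exon bases with D030025P21Rik on the opposite strand.

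**Figure D2:**
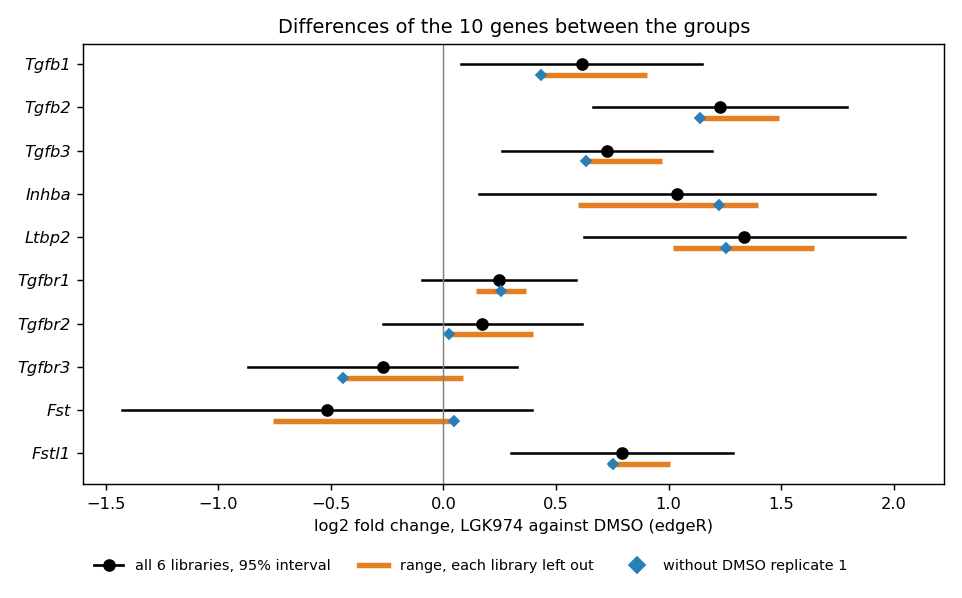
Log2 fold change of LGK974 against DMSO from edgeR (horizontal axis) for each of the 10 genes, with its 95% interval (black), the range over the fits that leave out 1 library each (orange) and the value without DMSO replicate 1 (blue). The intervals of Tgfb1, Tgfb2, Tgfb3, Inhba, Ltbp2 and Fstl1 lie above 0 and those of the 3 receptors and Fst include it.

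The receptors had smaller fold changes than the ligands, a difference that was not itself tested. Tgfbr1 (chr4:47353222-47414931, plus strand), the type I receptor kinase, stood at 54.8, 45.3 and 46.6 CPM with LGK974 and at 40.5, 43.7 and 39.5 CPM with DMSO. The groups did not overlap, by a small margin, and the log2 fold change was 0.25 (SE 0.15, 95% interval -0.10 to 0.59, edgeR adjusted p 0.433). It was -0.04 with counts scaled from TPM. Tgfbr2 (chr9:116084293-116175360, minus strand), the type II receptor, stood at 66.8, 63.4 and 65.2 CPM with LGK974 and at 43.8, 62.2 and 67.3 CPM with DMSO, with a log2 fold change of 0.17 (SE 0.19, 95% interval -0.27 to 0.61, edgeR adjusted p 0.651). Only DMSO replicate 1 was low, and without it the value was 0.02.

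Tgfbr3 (chr5:107106570-107289629, minus strand), the co-receptor betaglycan, stood at 35.3, 44.8 and 29.1 CPM with LGK974 and at 31.5, 42.2 and 57.9 CPM with DMSO. The groups overlapped widely, and DMSO replicate 3 was the highest library. The log2 fold change was -0.27 (SE 0.26, 95% interval -0.87 to 0.33, edgeR adjusted p 0.602), and it was 0.09 without DMSO replicate 3. Tgfbr3 shares 297 exon bases with Gm43422 on its own strand.

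Of the follistatin-type genes, Fstl1 was higher with LGK974 and Fst showed no difference beyond the spread. Fstl1 (chr16:37776873-37836514, plus strand), a glycoprotein of mesenchymal cells and epicardium, stood at 292, 213 and 317 CPM with LGK974 and at 145, 178 and 152 CPM with DMSO (274 ± 54.3 against 158 ± 17.4, SD, n = 3 each). Its groups did not overlap, with a log2 fold change of 0.79 (SE 0.21, 95% interval 0.30 to 1.29, unadjusted p 0.00605, edgeR adjusted p 0.368, DESeq2 adjusted p 0.023).

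Fst (chr13:114452290-114458951, minus strand), the secreted inhibitor that binds activin almost irreversibly, stood at 3.23, 2.91 and 3.13 CPM with LGK974 and at 7.21, 2.96 and 3.09 CPM with DMSO. Of the 6 libraries 5 lay between 2.91 and 3.23 CPM, and DMSO replicate 1 was high. The log2 fold change was -0.52 (SE 0.39, 95% interval -1.43 to 0.39, edgeR adjusted p 0.516), and it was 0.05 without that library. Fst shares 115 exon bases with Gm47040 on the opposite strand.

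The order of the 10 genes in abundance was compared within each library as TPM, which is per length. Fstl1 ranked first in all 6 libraries, at 46.4 to 199 TPM. Tgfb1 followed at rank 2 or 3, Tgfbr1 at 2 to 4, Tgfb2 at 3 to 6, Tgfbr2 at 4 to 6, Tgfbr3 at 4 to 8, Ltbp2 at 6 to 8, Inhba at 7 to 9 and Tgfb3 at 7 to 10. Fst came last in 5 libraries, at 0.993 to 2.36 TPM over all 6. Every pair of neighbours in this order except Fstl1 and Tgfb1 changed places in at least 1 library, so only the first place was the same throughout. Among the 4 ligands, Tgfb1 gave 48.9 ± 4.85% of the summed TPM with LGK974 and 52.2 ± 7.56% with DMSO, and Tgfb2 gave 32.7 ± 5.52% and 29.8 ± 5.59% (SD, n = 3 each). In this TPM, summed over coding and non-coding transcripts, the shares of Tgfb1 and Tgfb2 differed by less than the spread between libraries. Short transcripts weigh heavily in that sum. Tgfb1-205, 241 bases long and not coding, held 1.51% of Tgfb1 counts in LGK974 replicate 1 but 8.19 of its 28.3 TPM. In DMSO replicate 1 the coding Tgfb2-201 held 90.8% of Tgfb2 counts but 3.30 of its 6.94 TPM. Ligand shares over coding transcripts alone were not computed.

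The levels of Fst rest on few counts and largely on a transcript that is not coding. Fst-206, annotated as a retained intron, held 49.0%, 64.1% and 71.6% of the Fst counts with LGK974 and 78.3%, 82.5% and 66.5% with DMSO. The coding transcript Fst-202 held 51.0%, 20.0% and 20.5% with LGK974 and 17.6%, 17.5% and 25.5% with DMSO. Fst-206 keeps introns 3, 4 and 5 of Fst-202, of which introns 3 and 4 lie inside the coding region. Intron 3 (338 bases, chr13:114455346-114455683) is shown. The retained and the spliced form part at the end of the exon before it, after which capitals mark the intron in the first line and the next exon in the second.

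Fst-206, intron 3 kept: agggcaaatgtaaaaGTAGGTCCTACCCTT

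Fst-202, intron 3 spliced out: agggcaaatgtaaaaAGACTTGTAGGGATG

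Both lines share the last bases of the exon, and the first continues with the GT that opens the intron. Counted over coding transcripts alone, the log2 fold change of Fst was -0.10 in place of -0.52. In DMSO replicate 1, Fst had 98.3 counts per kb and the median of the silent receptor genes was 32.1. In the other libraries Fst had 43.3 to 93.7 and that median was 3.01 to 11.6. These counts per kb were not scaled for depth, and the 93.7 was in LGK974 replicate 1, the library with the most counts. How much counts like those of the silent receptor genes add to the Fst level was not tested.

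Other transcripts also moved apart in DMSO replicate 1. The retained-intron transcript Tgfb1-204 held 24.45% of Tgfb1 counts there and 8.15% to 10.2% in the other libraries. The coding transcript Tgfbr1-203 held 42.4% of Tgfbr1 there and 16.7% to 21.8% elsewhere. Tgfb2-206, a coding transcript, held 17.4%, 21.2% and 15.3% of Tgfb2 with LGK974 and 4.48%, 6.24% and 18.6% with DMSO, so that DMSO replicate 3 lay among the LGK974 libraries. The retained-intron transcript Ltbp2-207 held 6.80% to 9.65% of Ltbp2 with LGK974 and 10.6% to 15.5% with DMSO, and Tgfbr3-204, of the same class, 6.61% to 17.98% and 6.73% to 10.5%. The remaining genes rested mostly on coding transcripts: Tgfb3 had 1 transcript, and Inhba-201 held at least 93.6% of Inhba. Fstl1-201 held at least 87.4% of Fstl1, a low reached in DMSO replicate 1. There the non-coding Fstl1-206 held 11.3%, against 2.41% to 4.08% in the other libraries. Tgfbr2 was split between Tgfbr2-202 (48.6% to 62.3%) and Tgfbr2-201. Over coding transcripts alone, Tgfb1 had a log2 fold change of 0.61, Tgfb2 of 1.17, Ltbp2 of 1.32 and Fstl1 of 0.76.

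**Figure D3:**
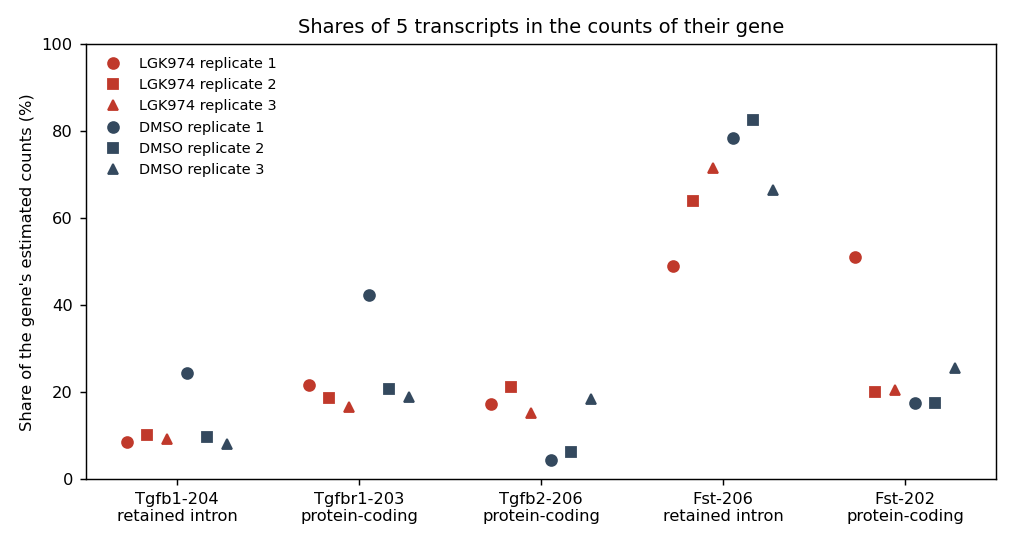
Share of 5 transcripts in the estimated counts of their gene (vertical axis, percent) in each of the 6 libraries. DMSO replicate 1 is high for Tgfb1-204 (24.45%) and Tgfbr1-203 (42.4%), and Fst-206 holds 49.0% to 82.5% of Fst in the libraries.

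Ratios between members were compared within each library, which takes away the scaling of the library. The log2 ratio of Inhba to Fst was 3.01, 2.52 and 3.98 with LGK974 and 1.38, 2.01 and 2.25 with DMSO, a difference of 1.29. The groups did not overlap, and the two-sided exact permutation p was 0.1, the smallest that 3 against 3 animals allow (0.2 adjusted over 4 ratios). Without DMSO replicate 1 the difference was 1.04, and without LGK974 replicate 3 it was 0.89. With TPM it was 1.01 with overlapping groups (exact permutation p 0.3). Over coding transcripts alone, Fst stood at 1.65, 0.578 and 0.752 CPM with LGK974 and at 1.43, 0.517 and 1.03 CPM with DMSO. The ratio of Inhba to this coding level was not tested. The log2 ratio of Tgfb1 to Tgfb2 was -1.02, -0.40 and -0.76 with LGK974 and -0.38, -0.35 and 0.25 with DMSO, a difference of -0.57 (exact permutation p 0.1, adjusted 0.2). With TPM, summed over coding and short non-coding transcripts alike, it was -0.22 (exact permutation p 0.5). The TPM ratio over coding transcripts alone was not computed. The Tgfb1 to Tgfb3 ratio differed by -0.08 (exact permutation p 0.4, adjusted 0.4), less than the spread among the DMSO libraries (SD 0.19), and by 0.04 with TPM. The Tgfbr3 to Tgfbr2 ratio differed by -0.44 (exact permutation p 0.2, adjusted 0.267).

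**Figure D4:**
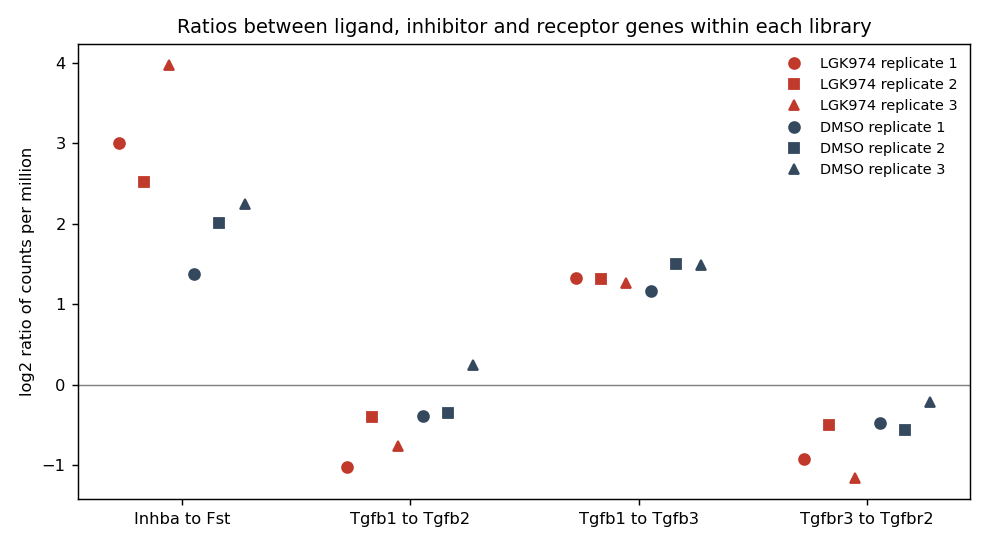
Log2 ratios of CPM between pairs of genes within each library (vertical axis), 1 point per library and group. Only the Inhba to Fst and Tgfb1 to Tgfb2 ratios separate the groups, with differences of 1.29 and -0.57. The Tgfb1 to Tgfb2 groups part by a small margin, at -0.40 (LGK974 replicate 2) and -0.38 (DMSO replicate 1). Fst counts include the non-coding transcript Fst-206.

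Genes that hold or release latent TGF-beta were also more often higher than lower with LGK974. Of 14 tested, 12 had a positive fold change, 4 were higher and 0 lower at unadjusted p under 0.05, and the median was 0.30. Over all tested genes 8130 were higher and 11964 lower, and 6.26% were higher and 7.18% lower at that p. This list and those below were chosen with earlier results of these data known, so their counts are a description. Emilin1, a matrix protein that restrains processing of the TGF-beta precursor, stood at 129 ± 24.9 against 66.1 ± 12.9 CPM (log2 fold change 0.96, SE 0.22, unadjusted p 0.00254). Fbn1, the fibrillin to which latent complexes attach, had 0.88 (SE 0.24, unadjusted p 0.00654), and Thbs1, the thrombospondin that can activate latent TGF-beta, had 1.22 (SE 0.36, unadjusted p 0.0105) with LGK974 replicate 3 at 198 CPM and the other LGK974 libraries at 91.9 and 75.6. Without LGK974 replicate 3 the value of Thbs1 was 0.75. All adjusted p-values of these genes were 0.368 in edgeR.

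The other activin-class ligands and antagonists showed no common direction. Of 9 tested from 10, 4 were higher and 5 lower, 0 had an unadjusted p under 0.05 in edgeR (1 in DESeq2, higher), and the median was -0.05. Fstl3, a second activin-binding follistatin-like protein, stood at 21.8 ± 3.34 against 14.7 ± 4.75 CPM (log2 fold change 0.57, SE 0.25, edgeR adjusted p 0.368), while Gdf11, a ligand close to myostatin, had 0.39 (SE 0.27) and Inhbe, another inhibin beta subunit, -0.53 (SE 0.38). Inhbe stood at 6.71 CPM in DMSO replicate 1 and at 2.72 to 3.02 CPM in the other 5 libraries, and its value without that library was -0.0099.

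Activin receptors and co-receptors were split as well, with 4 higher and 4 lower of 8 and a median of 0.01. Acvr2b, a type II activin receptor, stood at 1.32, 1.59 and 2.29 CPM with LGK974 and at 3.24, 3.19 and 3.91 CPM with DMSO (log2 fold change -0.99, SE 0.35, unadjusted p 0.0219, edgeR adjusted p 0.368). Its groups did not overlap, and DMSO replicate 3 was the highest library. Acvrl1, the type I receptor ALK1 of endothelium, stood at 25.1, 24.3 and 26.5 CPM against 14.2, 22.8 and 17.95 CPM (0.47, SE 0.19, unadjusted p 0.0411). Acvr1c, the type I receptor ALK7, had -1.77 (SE 0.81, edgeR adjusted p 0.369), with DMSO replicate 1 at 5.48 CPM and the others at 0.407 to 1.24. Without that library the value of Acvr1c was -0.43.

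The Smad transducers and their feedback regulators had a median of 0.12, with 14 of 19 higher, 3 of them at unadjusted p under 0.05 (6.26% of all tested genes), and 0 lower at that level (7.18%). These 3 are known as restraints on Smad signalling. So are other genes of the list that did not reach that level, such as Ski (log2 fold change 0.16) and Tgif2 (0.07). Tgif1, a Smad co-repressor, stood at 9.20, 9.72 and 12.4 CPM against 6.11, 7.03 and 5.65 CPM (0.74, SE 0.20, unadjusted p 0.00711). Skil, which binds and represses Smads, stood at 36.2 ± 5.54 against 26.9 ± 1.01 CPM (0.42, SE 0.16, unadjusted p 0.0275), and Pmepa1, a membrane protein that sequesters receptor Smads, at 69.5 ± 17.4 against 45.7 ± 9.02 CPM (0.60, SE 0.24, unadjusted p 0.0352). The adjusted p of each was 0.368 in edgeR.

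Genes known to respond to TGF-beta had the highest median of the 5 lists, 0.999, with 15 of 16 higher, 10 of them at unadjusted p under 0.05 (6.26% of all tested genes), and 0 lower at that level (7.18%). In 10 of the 16 each LGK974 library was above each DMSO library (10.7% of all tested genes). The list was chosen with earlier results of these data known, so these counts describe it and are no test of a TGF-beta response. Fn1, fibronectin, stood at 848, 587 and 1705 CPM with LGK974 and at 233, 340 and 346 CPM with DMSO (1.77, SE 0.41, unadjusted p 0.00289). Postn, the myofibroblast matrix protein periostin, had 1.56 (SE 0.30, unadjusted p 0.000927), and Timp1, an inhibitor of matrix metalloproteinases, had 1.20 (SE 0.31, unadjusted p 0.00461). None passed adjustment in edgeR (adjusted p 0.368), and DESeq2 called these 3 with all libraries. Without DMSO replicate 1, DESeq2 still called Postn and Timp1 but not Fn1 (adjusted p 0.1345). LGK974 replicate 3 held the highest value for 11 of the 16, as it did for 6 of the 10 ligand, receptor and regulator genes.

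**Figure D5:**
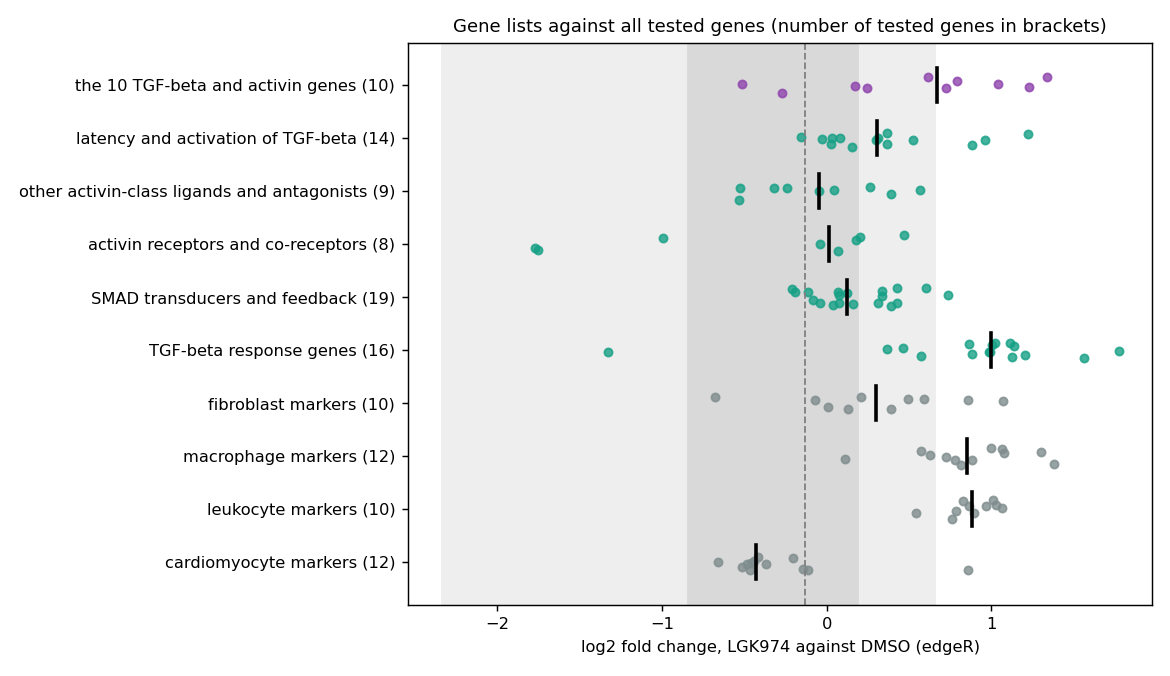
Log2 fold change of LGK974 against DMSO (horizontal axis, edgeR) of each tested gene, 1 point per gene, in the 10 genes, 5 lists of the pathway and 4 lists of cell type markers. Black bars are list medians, the dashed line is the median of all 20094 tested genes (-0.13), and the bands span their 25th to 75th (-0.84 to 0.19) and 5th to 95th (-2.34 to 0.66) percentiles. The 10 genes have a median of 0.67 and the response genes of 0.999.

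Markers of the cells that could carry these transcripts moved with the groups to different degrees. The summed level of 12 macrophage markers ranged from 603 to 687 CPM with LGK974 and from 260 to 410 CPM with DMSO, with 12 of 12 higher, and that of 10 leukocyte markers from 273 to 378 and from 167 to 210 CPM, with 10 of 10 higher. Fibroblast markers overlapped, at 1354 to 1554 CPM with LGK974 and 895 to 1533 CPM with DMSO, with 8 of 10 higher and a median log2 fold change of 0.30. Cardiomyocyte markers, which check the tissue, were present in all libraries and summed to 42329 to 59615 CPM with LGK974 and 47787 to 66322 CPM with DMSO, with 11 of 12 lower. Endothelial markers (7 of 10 higher, median 0.03, 519 to 712 CPM over all libraries) and mural markers (3 of 7 higher, median -0.03) did not separate the groups. Neutrophil markers (3 of 5 tested higher, median 0.08) summed to 32.7 to 45.9 CPM with LGK974. In DMSO replicates 1, 2 and 3 they summed to 79.5, 40.3 and 44.6 CPM, and Cxcr2 alone stood at 50.3 CPM in replicate 1. Mesothelial markers (1 of 6 higher, median -0.44) summed to 8.60 to 10.2 CPM with LGK974. In DMSO replicates 1, 2 and 3 they summed to 19.4, 13.7 and 9.19 CPM. The listed markers that were tested were not at 0 in all libraries, and the part of cell makeup in the levels of Tgfb1, Tgfb2, Tgfb3, Inhba, Ltbp2 and Fstl1 was not tested.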

How the data were processed

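RNA of the infarct area of 3 LGK974 and 3 DMSO mice was depleted of ribosomal RNA, made into libraries with a capture kit and sequenced on a HiSeq2000. The authors quantified Ensembl transcripts of GRCm38 with Kallisto, whose version is not given in the sources used here, and deposited an estimated count and a TPM for each of 118489 transcripts per library. Kallisto divides reads between similar transcripts, so shares of transcripts and values of overlapping genes are uncertain.

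Of these transcripts 98.6% were joined by identifier to GENCODE M21 genes, and their estimated counts, added up over each gene, were rounded. A gene was tested if 3 or more libraries held 10 or more counts, by edgeR 4.0.16 (TMM, quasi-likelihood, treatment as the only factor, R 4.3.3), with Benjamini-Hochberg adjustment over all 20094. DESeq2 1.42.0, limma-voom (limma 3.58.1), other filters, counts scaled from TPM, the replicate block and leaving out each library were alternatives. Within-library ratios used log2(CPM + 0.1) and exact two-sided permutation. The scripts were tested on simulated data.

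The genes and lists were chosen with earlier results of these data known. Named were all 10 genes, the 3 genes of each pathway list with the smallest unadjusted p, and transcripts holding at least 10% of their gene's counts. Ltbp2-207, under that share, was named after its values were seen. Each library held between 41579787 and 80398211 estimated counts, and each group 3 animals.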

Additional observations from a re-analysis of the deposited data

How the results depend on the processing

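The direction of the differences of Tgfb1, Tgfb2, Tgfb3, Inhba, Ltbp2 and Fstl1 held under all alternatives run, and the median log2 fold change of the 10 genes was 0.52 to 0.89 over them. Calls at an adjusted p under 0.05 depended on the method: of the 10 genes 3 were called by DESeq2, 3 by edgeR with no filter on low counts and 3 by DESeq2 without DMSO replicate 1, and of all genes 315, 1206 and 326, where edgeR called 0 (2699 at unadjusted p, 1949 with limma-voom). The 3 genes were not the same: both DESeq2 fits called Tgfb2, Ltbp2 and Fstl1, and edgeR with no filter called Tgfb2, Ltbp2 and Inhba. Leaving out 1 library at a time gave 0 of the 10 genes and 0 to 2 of all genes, and 821 (without LGK974 replicate 3) to 4628 (without DMSO replicate 3) genes at unadjusted p. The common dispersion of edgeR was 0.238, and 0.0825 without DMSO replicate 1.

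Values turned direction for Tgfbr1 with counts scaled from TPM (-0.043), Tgfbr3 without DMSO replicate 3 (0.087, with -0.44 the lowest of its values when 1 library was left out), Fst without DMSO replicate 1 in edgeR (0.048, with -0.76 the lowest when 1 library was left out) and in DESeq2 (0.033), and the Tgfb1 to Tgfb3 ratio with TPM (0.035). The cause was not tested. The count of other activin-class genes higher at unadjusted p was 1 in place of 0 with RLE normalization, DESeq2, limma-voom, no filter on low counts, counts scaled from TPM and the replicate block, and 0 to 1 when libraries were left out. That of activin receptors was 0 in place of 1 with counts scaled from TPM, with coding transcripts only and with DESeq2 without DMSO replicate 1, and 0 to 1 when libraries were left out. That of latency genes was 2 in place of 4 with DESeq2 without DMSO replicate 1, and 3 to 4 when libraries were left out. That of Smad genes was 1 to 4 and that of response genes 8 to 12 when libraries were left out. Coding transcripts only and DESeq2 without DMSO replicate 1 were chosen after seeing the data.

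The replicate numbers are shared by both groups, and no animal or day is stated to be shared by samples with the same number. Deviations of samples with the same number correlated at -0.0752 to 0.498 (mean 0.243). Those of other pairs correlated at -0.531 to 0.185 (mean -0.128). These few values cannot settle whether the numbers pair the animals, so the replicate block was kept as an alternative. The replicate block gave 0 called genes (3312 at unadjusted p), 6 of the 10 genes higher at unadjusted p and a median of 0.68. At 3 animals per group an exact permutation test cannot go below 0.1.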
